A study of Mus musculus with 15 samples.

Results

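Open chromatin in macrophages that had seen lipopolysaccharide (LPS) for 1 h or more was set against open chromatin in macrophages that were untreated or had received LPS for 30 min. The later set held 9 ATAC-seq libraries, 3 each at 1 h, 2 h and 4 h of LPS, and the earlier set held 6, namely 3 untreated and 3 at 30 min, which together are all 15 libraries of the series. Libraries were assigned to the sets by the labelled treatment alone, but the split itself was chosen with earlier results of these data known. The earlier set is therefore not an untreated control, since 3 of its 6 libraries came from cells that had received LPS. ATAC-seq uses a transposase to cut DNA that is not packed away, and a peak is a stretch of the genome where such cuts pile up. All cells were primary macrophages (bone marrow-derived macrophages, BMDM) from C57BL/6 mice, grown in medium conditioned by L929 cells, which supplies the growth factor that turns marrow cells into macrophages, and used on day 7 of differentiation. LPS was given at 10 ng/ml, and no allele or other agent is labelled in any group. Whether the 3 libraries of a group stem from different mice or culture dishes is not labelled. A p-value here is therefore about variation among these libraries, and that variation may be technical. The main tests treat libraries as independent, although the 3 libraries of each time always share a set. A low p is thus not specific to the split between 30 min and 1 h.

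LPS is a component of the outer membrane of Gram-negative bacteria and is sensed on macrophages by the receptor TLR4. Signalling from TLR4 activates NF-kB, AP-1 and interferon regulatory factors within minutes, and the earliest induced genes often lie in chromatin that is already accessible. A later wave of genes, many of them driven by secreted interferon, depends on newly made proteins and on the remodelling of nucleosomes at enhancers and promoters. Peaks were deposited on mouse genome build mm9. No annotation or genome of that build was used here, so regions are given by position, the genes, exons or introns at them are not stated, and the labelled cell type was not checked against macrophage markers.

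The peak lists of the 9 later libraries held 52447 to 82222 peaks outside the mitochondrial genome, against 54168 to 76817 in the 6 earlier ones. Means were 71498 ± 11107 (SD, n = 9) in later libraries and 66344 ± 8822 (SD, n = 6) in earlier libraries, a difference smaller than the spread between libraries (exact two-sided permutation test, p = 0.352, adjusted p = 0.440 over 5 library-level measures). Median peak width was 1390 ± 94.8 bp (SD, n = 9) in later libraries and 1375 ± 117 bp (SD, n = 6) in earlier ones, also within the spread (exact permutation p = 0.784, adjusted p = 0.784). Sequencing depth is unknown, and chromatin without a called peak may still have been accessible below the caller's threshold. In bulk chromatin, a peak open in fewer cells and a peak less open in each cell cannot be told apart.

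The number of very broad peaks, of 10 kb or more, was the library-level measure in which the sets stood furthest apart. Later libraries held 45 to 106 such peaks with a median of 85.0, against 17 to 84 with a median of 48.5 in earlier libraries, so the sets overlapped. Means were 79.4 ± 20.4 (SD, n = 9) in later and 46.5 ± 26.3 (SD, n = 6) in earlier libraries, with an exact two-sided permutation p of 0.0182 that did not pass adjustment over the 5 measures (adjusted p = 0.0909). The overlap came from the 30 min libraries. The counts were 17, 37 and 20 in untreated cells, 61, 84 and 60 at 30 min, 92, 85 and 47 at 1 h, 78, 88 and 85 at 2 h, and 89, 106 and 45 at 4 h. Every 30 min library lay inside the range of the later set and above every untreated library. With the 3 libraries at 30 min left out, the difference was 54.8 peaks (exact permutation, adjusted p = 0.0227), and with the 3 untreated libraries left out it was 11.1 peaks (exact permutation, adjusted p = 0.727). The difference also passed adjustment without 30 min replicate 2 (40.4 peaks, exact permutation adjusted p = 0.0300) and without 4 h replicate 3 (37.2 peaks, exact permutation adjusted p = 0.0450). Peaks of 5 kb or more averaged 617 ± 209 (SD, n = 9) in later libraries and 453 ± 169 (SD, n = 6) in earlier ones (exact permutation p = 0.134, adjusted p = 0.334). The total length under peaks averaged 113 ± 16.3 Mb (SD, n = 9) in later and 102 ± 13.8 Mb (SD, n = 6) in earlier libraries (exact permutation p = 0.225, adjusted p = 0.375).

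**Figure D1:**
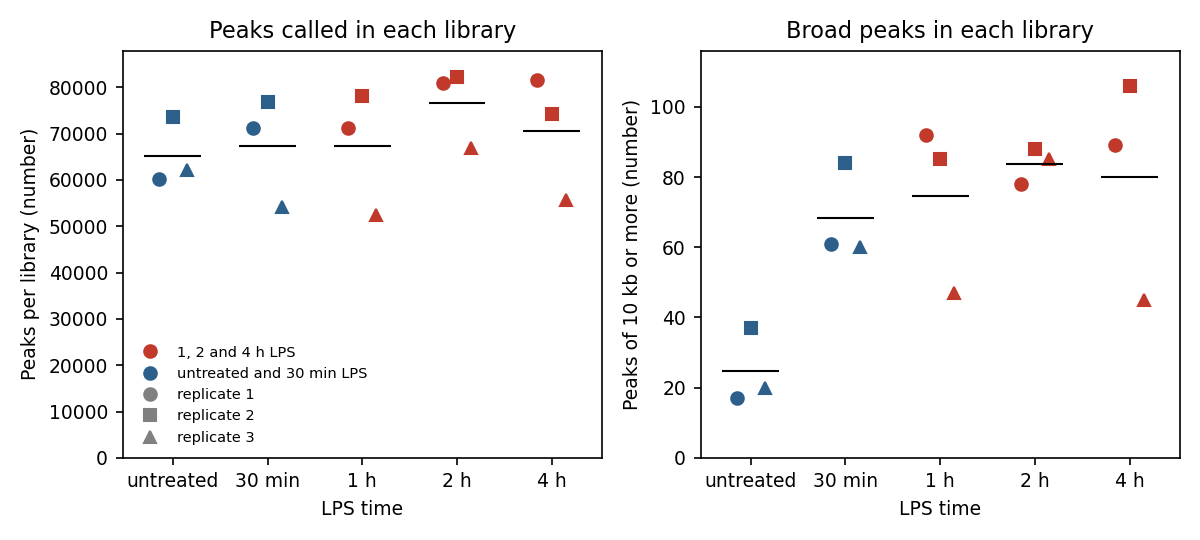
Peaks per library (left, outside the mitochondrial genome) and peaks of 10 kb or more per library (right) by LPS time, with a point for each library, its shape giving the replicate number, red for 1 h, 2 h and 4 h, blue for untreated and 30 min, and a line at each group's mean. Counts of broad peaks at 30 min (61, 84 and 60) lie among those of the later libraries, while those of untreated cells (17, 37 and 20) lie below all others.

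The peak sets of libraries from the same side of the split resembled each other slightly more than sets from opposite sides. The Jaccard index (base pairs shared by 2 peak lists divided by base pairs in either) averaged 0.633 between pairs of later libraries, 0.634 between pairs of earlier libraries and 0.594 between later and earlier libraries. The excess within sets was 0.0390, larger than under almost all other ways to label 9 and 6 of the libraries (exact one-sided permutation test, p = 0.00260). The relabelling moved single libraries, while the 3 libraries of each time always share a set here. A split that keeps the times whole is thus favoured, and this p is not specific to the split between 30 min and 1 h. Untreated and 30 min libraries did not stand at the same distance from the later set. The index of 30 min with later libraries averaged 0.616, that of untreated with later libraries 0.573, and that of 30 min with untreated libraries 0.629. By time, the index of 30 min libraries averaged 0.628 with 1 h, 0.619 with 2 h and 0.600 with 4 h. With lists of equal length 30 min libraries were closer to 1 h (0.650) than to untreated libraries (0.643), with 2 h (0.634) and 4 h (0.613) below both. Replicate 2 at 30 min resembled the later libraries (0.627) as much as its own set (0.626). Replicate 3 at 1 h, the shortest list of all, resembled the earlier libraries (0.577) more than its own set (0.569), but with lists of equal length it resembled its own set more (0.625) than the earlier libraries (0.610).

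Overlapping peaks of the 15 lists were merged into 104855 regions with a median length of 1647 bp. Of these, 34777 had a peak in every library, and 36919 had one in 3 to 12 libraries and were tested for presence. A peak stood in 9 of 9 later and 0 of 6 earlier libraries in 73 regions (0.198% of those tested), called later-only regions here. The reverse, a peak in 0 of 9 later and 6 of 6 earlier libraries, held for 37 regions (0.1% of those tested), called earlier-only regions. These complete patterns reach the smallest p that Fisher's exact test can give for 9 against 6 libraries, 0.000200, which became an adjusted p of 0.0671 (Benjamini-Hochberg over the tested regions). No region therefore passed 0.05 with all peaks, with 0 more often (0.0%) and 0 less often (0.0%) open in later libraries. At an unadjusted p under 0.05 the same test gave 4740 regions open more often (12.8%) and 1988 open less often (5.38%) in later libraries. Among these, the more frequent direction in later libraries took 70.5%, and later lists were on average longer.

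Single libraries decided how many regions were complete. Without 1 h replicate 3 the later-only count was 231, without 30 min replicate 2 it was 214 and without 1 h replicate 1 it was 112, a looser requirement in each case because a library fewer has to fit. The earlier-only count was 93 without 30 min replicate 3 and 66 without 30 min replicate 2. Without 1 h replicate 3, 231 regions open more often and 39 open less often passed the adjusted threshold of Fisher's exact test, while leaving out any other single library gave 0 in both directions.

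When every list was cut to its 52447 highest-scoring peaks, the length of the shortest list, regions did pass. The merged cut lists gave 76277 regions, of which 24163 were tested. In later libraries 645 regions (2.67%) were open more often and 484 (2.0%) less often (Fisher's exact test, adjusted p under 0.05, smallest adjusted p 0.0174). These calls were made with the replicate number left out of the test. With that number as a block, 0 and 0 regions passed (exact test within replicate numbers, smallest adjusted p 0.0856). The smallest p of this blocked exact test is 0.001, against 0.000200 for Fisher's exact test. Even complete separation thus did not pass there, so the 0 counts cannot tell whether replicate structure lies behind the calls. In the test without the block, 51.5% of the regions at an unadjusted p under 0.05 were more often open in later libraries, close to even. Of the calls past the adjusted threshold it was 57.1%. The cut gives every list the same number of peaks, which by itself pulls such shares towards even, so they say little on direction. Complete separation held for 183 regions in the later direction (0.757%) and 94 in the earlier direction (0.389%). Of the 645 regions, 247 had a peak in 8 later and 0 earlier libraries and 215 in 9 later and 1 earlier library. Of the 484 regions, 246 had a peak in 0 later and 5 earlier libraries and 144 in 1 later and 6 earlier libraries. Each left-out library reduced these counts, to between 185 and 323 regions more often open and between 96 and 238 less often open, where the largest values came without 30 min replicate 2. The smallest p that the test can give is larger with 14 libraries.

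**Figure D2:**
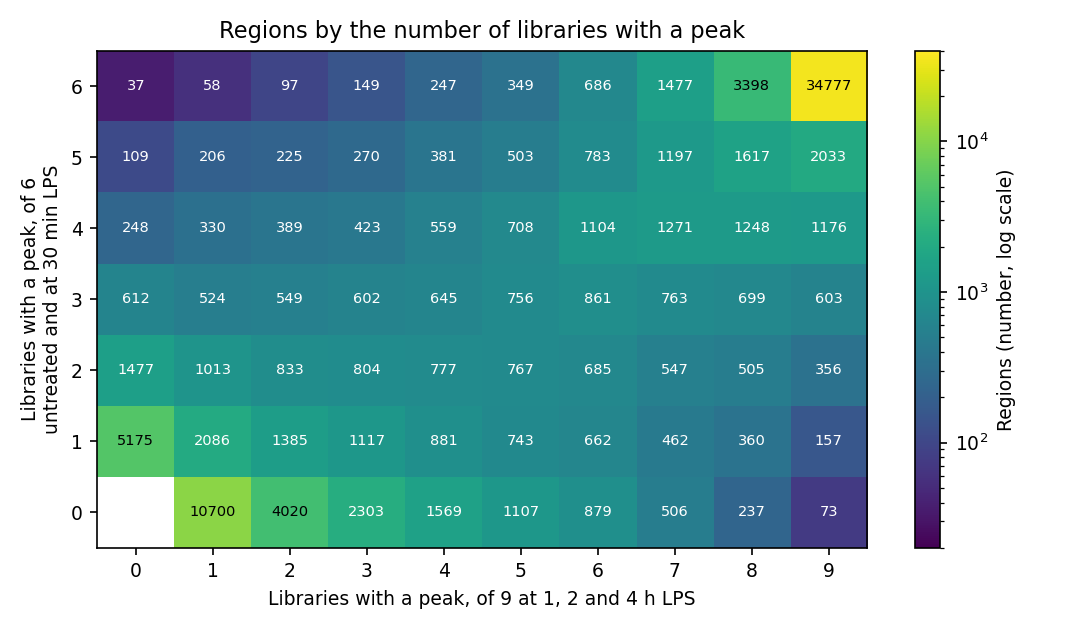
Number of merged regions, with all peaks, by how many of the 9 later libraries (horizontal axis) and how many of the 6 earlier libraries (vertical axis) had a peak, printed in each cell and shaded on a log scale. The lower right corner holds the 73 later-only regions, the upper left the 37 earlier-only regions and the upper right the 34777 regions with a peak in every library.

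The 2 directions differed in what the cut removed. In the uncut lists the 645 regions had a peak in a median of 9 later and 2 earlier libraries, and 82.9% of them had an unadjusted p under 0.05. The 484 regions had a peak in a median of 5 later and 6 earlier libraries in the uncut lists, and 37.2% had an unadjusted p under 0.05. Most of the regions called less often open in later libraries therefore still held a peak in some later libraries, ranked below the cut. Of the 73 later-only regions, 49 (67.1%) overlapped one of the 645, which is 7.6% of the 645. Of the 37 earlier-only regions, 11 (29.7%) overlapped one of the 484, which is 2.27% of the 484.

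Within the 645 regions the share that held a peak was 1.19% in untreated libraries on average and 9.92% in 30 min libraries, then 89.9% at 1 h, 99.2% at 2 h and 98.1% at 4 h. Within the 484 regions it was 98.1% in untreated and 85.0% in 30 min libraries, then 5.65% at 1 h, 1.93% at 2 h and 2.34% at 4 h. These shares follow from how the regions were called and describe where the exceptions lay. The exceptions in the earlier set lay mostly at 30 min and in 1 library, with 21.7% of the 645 regions holding a peak in 30 min replicate 2 against 4.03% in each of the other 30 min libraries.

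**Figure D3:**
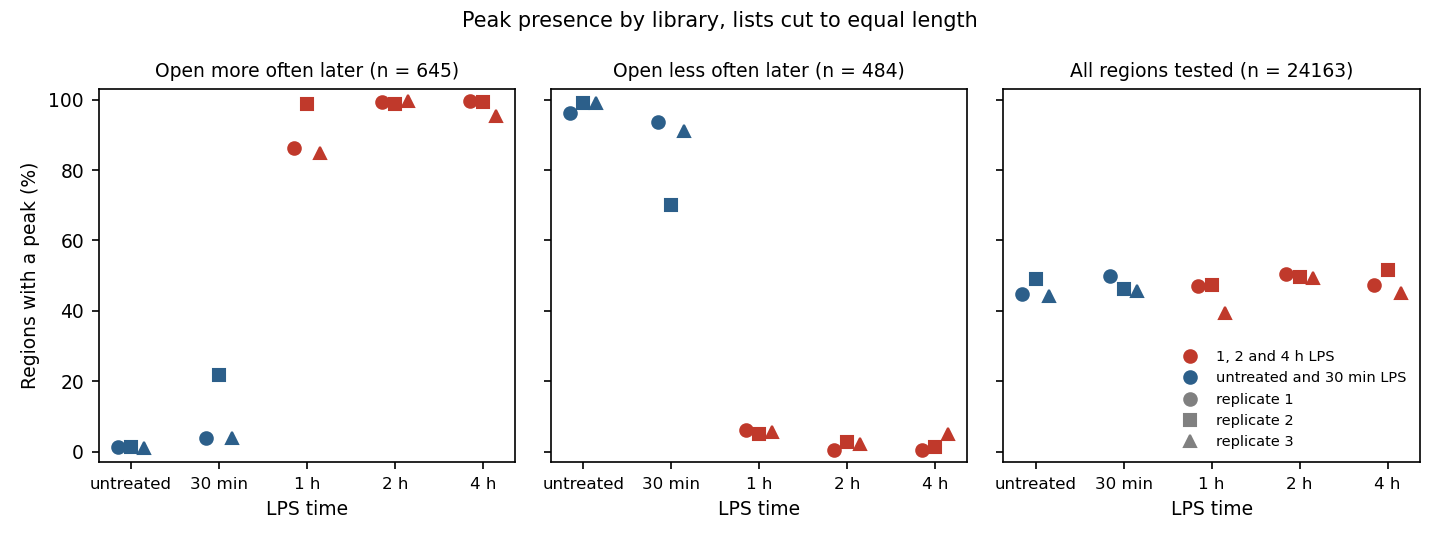
Percent of regions with a peak in each library by LPS time, with lists of equal length, for the 645 regions more often open and the 484 less often open in later libraries and for all 24163 tested, with red points for 1 h, 2 h and 4 h, blue for untreated and 30 min, and shapes for replicate numbers. Among earlier libraries 30 min replicate 2 departs most from its set, at 21.7% of the 645 and 70.2% of the 484.

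The later-only regions had middling scores. The deposited score ranks a peak within its own list, and over the 73 regions the median within-list percentile was 51.6, against 22.0 over all regions tested. The earlier-only regions had a median percentile of 22.7, close to the tested regions as a whole. Median region length was 1773 bp for the later-only regions, 1623 bp for the earlier-only regions and 1511 bp for all regions tested. The later-only peaks were of ordinary strength for their lists, and the earlier-only peaks were mostly weak ones.

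The 8 later-only regions whose lowest percentile over the 9 later lists was highest are given by position. All 8 had an adjusted p of 0.0671 with all peaks and passed with lists of equal length (Fisher's exact test, adjusted p = 0.0174). The cut keeps the highest-scoring peaks and the naming rule picked high percentiles, so this pass largely follows from the choice and is no separate support. Of all 73 later-only regions, 49 overlapped a region called with lists of equal length. The highest in this order was chr1:140454422-140457351, with a peak at the 43.1st percentile of its list at the lowest, the 77.3rd at the median and the 86.8th at the highest among the 9 later libraries, and no peak in the 6 earlier ones. Its peaks covered 772 bp to 2599 bp, and the percentiles at 1 h (43.1, 67.7 and 46.4) lay below all those at 2 h and 4 h (70.8 to 86.8). The region at chr6:98999937-99001709 ranged over percentiles 42.5 to 84.8 with a median of 70.5. The region at chr3:108857329-108860159 ranged over 40.8 to 75.4 with a median of 57.0.

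Later-only regions differed in when the peak stood highest in its list. At chr5:136505126-136507075 the percentiles were 33.6, 37.4 and 39.8 at 1 h, 75.6, 72.4 and 71.8 at 2 h, and 93.5, 87.5 and 85.0 at 4 h, so that the 3 times did not overlap and the latest stood highest. At chr4:63043699-63045603 they were 35.8, 75.4 and 60.4 at 1 h, 85.6, 87.0 and 82.1 at 2 h, and 75.7, 73.2 and 58.6 at 4 h, with 2 h above the other times. At chr9:45722974-45724637 they were 54.5, 64.8 and 33.4 at 1 h, 81.0, 86.7 and 79.5 at 2 h, and 72.3, 60.0 and 28.6 at 4 h, again highest at 2 h. These ranks come from lists of different lengths and are given as a description. The other named later-only regions were chr10:18654067-18655900, with percentiles of 33.5 to 72.2, and chr4:63595587-63597511, with percentiles of 28.6 to 83.7.

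The earlier-only regions were led by chr4:19782505-19784385. Its peak stood at percentiles 76.1, 78.4 and 92.2 in the 3 untreated lists and 66.0, 57.5 and 62.8 in the 3 lists at 30 min, with no peak in the 9 later lists. Each 30 min value lay below each untreated value. The peak covered 1256 bp to 1825 bp. It passed with lists of equal length (Fisher's exact test, adjusted p = 0.0174), as did chr13:113222837-113224496, chr6:49009846-49015238 and chr1:89619298-89620920 at the same value and chr6:116353070-116354788 at 0.0428. The naming rule favours such passes in this direction too.

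The region chr6:49009846-49015238 was the longest of the named earlier-only regions. Peaks covered 3241, 4270 and 4323 bp of it in untreated libraries and 4395, 3949 and 1696 bp at 30 min. None was called there in any later library, although the percentiles of 22.5 to 51.5 in the earlier lists were moderate. At chr13:113222837-113224496 the percentiles ran from 33.7 to 61.0 with a median of 53.4. The named earlier-only regions chr4:47716961-47718240, chr9:114760502-114761797 and chr14:26362015-26364579 had median percentiles of 24.7, 19.3 and 20.9 and did not pass with lists of equal length (Fisher's exact test, adjusted p = 0.0880). The highest percentile in any earlier list was 55.0, 30.9 and 38.1 in these 3 regions.

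The position of the 30 min libraries was read from regions chosen without them. A peak stood in 9 of 9 later and 0 of 3 untreated libraries in 822 regions. Of these, 73 (8.88%) lacked a peak in every 30 min library, 153 (18.6%) had one in 1 library, 289 (35.2%) in 2 and 307 (37.3%) in all 3. By library the shares were 68.9%, 88.9% and 43.2% in 30 min replicates 1, 2 and 3, against 53.4%, 60.1% and 18.2% over all regions tested. Each 30 min library thus held a peak more often in these regions than over the tested regions, and most of the 822 regions had a peak in 2 or 3 of the 30 min libraries. The tested regions also include regions with few peaks in any group, so these shares stand side by side without a test. In the reverse set, 334 regions had a peak in 3 of 3 untreated and 0 of 9 later libraries. Of them, 98 (29.3%) lacked a peak in every 30 min library, 112 (33.5%) had one in 1 library, 87 (26.0%) in 2 and 37 (11.1%) in all 3. Their shares by library were 55.7%, 39.5% and 23.7%, against the same 53.4%, 60.1% and 18.2% over all regions tested.

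With lists of equal length, each 30 min library again held a peak more often in regions that appeared than over the tested regions. Of 985 regions present in 9 of 9 later and 0 of 3 untreated lists, 371 (37.7%) had a peak in all 3 libraries at 30 min. In 183 (18.6%) every 30 min library lacked a peak, against 8.88% with all peaks. The shares by library were 57.9%, 75.1% and 48.0%, against 12071 of 24163, 46.3% and 45.6% over all regions tested there. Of 834 regions in 3 of 3 untreated and 0 of 9 later lists, 224 (26.9%) lacked a peak in every 30 min library and 94 (11.3%) had one in all 3. Their shares by library were 45.7%, 23.9% and 52.3%. Replicate 3 thus lay above its share over all regions tested, and replicates 1 and 2 below theirs. With all peaks only replicate 2 lay below.

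In 3 of the 4 classes of regions one library short of complete separation, the exception fell mostly in a single group. With all peaks, 157 regions had a peak in 9 of 9 later and 1 of 6 earlier libraries, and the 1 was a 30 min library in 153 (97.5%), namely 30 min replicate 2 in 141 (89.8%). In 237 regions with a peak in 8 of 9 later and 0 of 6 earlier libraries, the missing one was a 1 h library in 199 (84.0%), namely 1 h replicate 3 in 158 (66.7%). Of 109 regions with a peak in 0 of 9 later and 5 of 6 earlier libraries, the missing one was a 30 min library in 87 (79.8%). In 58 regions with a peak in 1 of 9 later and 6 of 6 earlier libraries the exception was spread over the later times, with 25 (43.1%) at 1 h, 15 (25.9%) at 2 h and 18 (31.0%) at 4 h. List lengths moved with these patterns, since 30 min replicate 2 was the longest earlier list (76817 peaks) and 1 h replicate 3 the shortest of all (52447 peaks). Their part in the result was not tested.

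Length was compared in the 34777 regions that had a peak in every library. The base pairs under peaks in a region were taken on a log2 scale, and each library was centred on its median over these regions. In later libraries 572 regions (1.64%) were widened and 218 (0.627%) narrowed at an adjusted p under 0.05 (limma with Benjamini-Hochberg adjustment), so 72.4% of the calls were widened. The median log2 difference was 0.64, a 1.56-fold greater length, in the widened regions and −0.54, a 0.688-fold length, in the narrowed ones, against −0.0060 over all regions tested. Mean covered length had a median of 2981 bp in later and 1773 bp in earlier libraries over the widened regions, and of 1808 bp in later and 2760 bp in earlier libraries over the narrowed regions. A single peak in all 15 libraries was found in 27.6% of the widened and 31.7% of the narrowed regions, against 71.7% of all regions tested, so most calls were made in regions where a library held several peaks. With only the widest peak of each region measured, 207 regions were widened and 88 narrowed, and 165 of the 207 were among the 572. Most of the 572 were thus not called by the width of their widest peak.

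**Figure D4:**
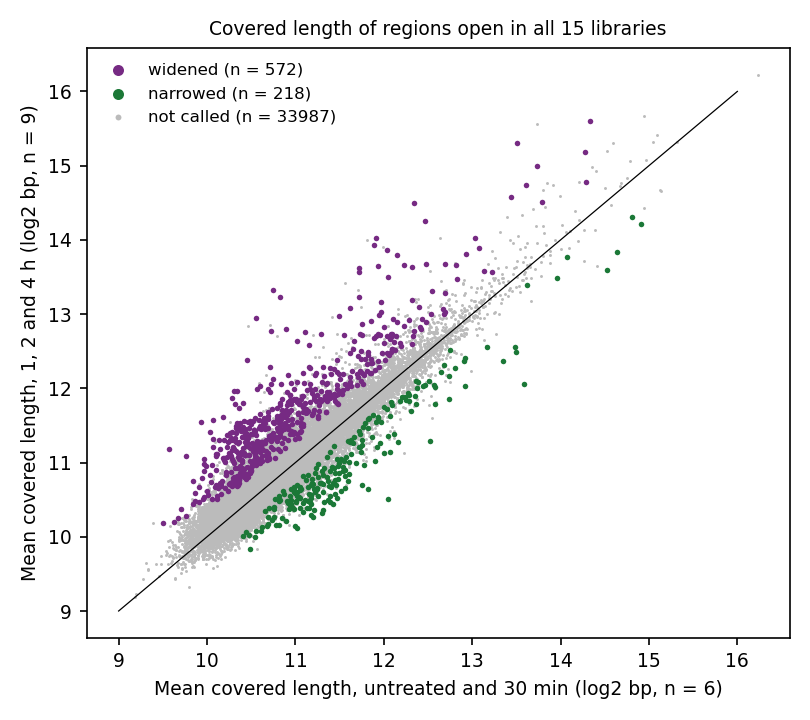
Mean covered length of each region with a peak in all 15 libraries, on a log2 scale of base pairs before centring, in the 9 later libraries (vertical axis) against the 6 earlier libraries (horizontal axis), with a line where both are equal. The 572 widened regions (purple) lie above the line, the 218 narrowed ones (green) below it, and the regions not called (grey) around it.

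The widened count without single libraries ran from 343 to 799 and the narrowed count from 102 to 271. The widened count was lower by more than 1.5 times without untreated replicate 1 (352), untreated replicate 2 (343), untreated replicate 3 (362), 2 h replicate 1 (363) and 2 h replicate 2 (367). The narrowed count did so without untreated replicate 1 (136), untreated replicate 2 (102), untreated replicate 3 (111) and 2 h replicate 1 (137). The untreated libraries carried more of the contrast than those at 30 min. Without the 3 untreated libraries 80 regions were widened and 25 narrowed, and without the 3 at 30 min 1090 were widened and 361 narrowed. Without the 3 libraries at 1 h the counts were 1000 and 258, without those at 2 h 116 and 71, and without those at 4 h 252 and 122. Without centring, 79.5% of the calls were widened (457 and 118), and with quantile scaling 64.9% (571 and 309).

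By time, the median length of the widened regions relative to untreated libraries was 0.20 (log2) at 30 min and 0.59 at 1 h, then 0.84 at 2 h and 0.79 at 4 h. That of the narrowed regions was −0.11 at 30 min and −0.59 at 1 h, then −0.64 at 2 h and −0.59 at 4 h. The rule of calling used these values, so they describe the regions and are not tested. Among the later times the greatest mean length was reached at 2 h in 254 of the 572 widened regions (44.4%), at 4 h in 238 (41.6%) and at 1 h in 80. The smallest mean length of the narrowed regions was spread more evenly, with 31.2% at 1 h, 39.4% at 2 h and 29.4% at 4 h. Widening was thus mostly greatest at 2 h or 4 h, and narrowing had no single time.

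The largest widening among regions whose sets did not overlap was at chr1:151945989-151957538. Peaks covered 4171 to 11338 bp of it in later libraries with a median of 10001 bp, against 1115 to 3156 bp with a median of 1304 bp in earlier libraries. The log2 difference was 2.37 (SE 0.251, limma adjusted p = 9.06e-05). The covered lengths grew with time, at 1115, 1253 and 1355 bp in untreated cells, 1244, 1555 and 3156 bp at 30 min, 4171, 5673 and 4959 bp at 1 h, 7102, 10324 and 10001 bp at 2 h, and 11172, 11234 and 11338 bp at 4 h. Each later time lay wholly above the one before it. The widest single peak there was not called as widened (limma adjusted p = 0.0905).

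The region at chr4:134761439-134770022 was widest on average at 2 h. Later libraries covered 4922 to 8453 bp (median 7728 bp), against 1232 to 2951 bp (median 1606 bp) in earlier ones, a log2 difference of 2.02 (SE 0.161, limma adjusted p = 6.31e-06). By time its lengths were 1232, 1694 and 1569 bp in untreated cells, 1643, 2951 and 1479 bp at 30 min, 5827, 7728 and 8453 bp at 1 h, 7960, 8166 and 8355 bp at 2 h, and 5776, 6825 and 4922 bp at 4 h. The values at 4 h lay below all those at 2 h.

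At chr11:83334261-83351320 a single long peak filled most of the region in 7 of the 9 later libraries. Later libraries covered 10983 to 16929 bp (median 16249 bp), against 2339 to 5314 bp (median 3904 bp) in earlier libraries, a log2 difference of 2.02 (SE 0.148, limma adjusted p = 3.46e-06). The 30 min libraries, at 4116, 5113 and 5314 bp, lay above the untreated ones, at 2339, 3023 and 3692 bp. The lowest later value, 10983 bp, was that of 1 h replicate 1, which held 7 separate peaks there.

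The other named widened regions were chr14:70055394-70077089, chr2:90288387-90347343 and chr2:180959610-180977732. At chr14:70055394-70077089 later libraries covered 11358 to 21112 bp, against 1214 to 8446 bp in earlier ones (log2 difference 1.80, SE 0.300, limma adjusted p = 0.00368). At chr2:90288387-90347343 they covered 19925 to 58827 bp, against 8049 to 15694 bp (log2 difference 1.76, SE 0.216, limma adjusted p = 0.000368). The 3 libraries at 2 h, at 58827, 57628 and 57695 bp, covered nearly the whole of it. At chr2:180959610-180977732 later libraries covered 5753 to 17981 bp, against 2980 to 4632 bp (log2 difference 1.69, SE 0.226, limma adjusted p = 0.000650). In these 3 regions the widest single peak was not called, with limma adjusted p values of 0.163, 0.0736 and 0.0687. The last of them also missed the threshold without the untreated libraries (limma adjusted p = 0.0539).

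**Figure D5:**
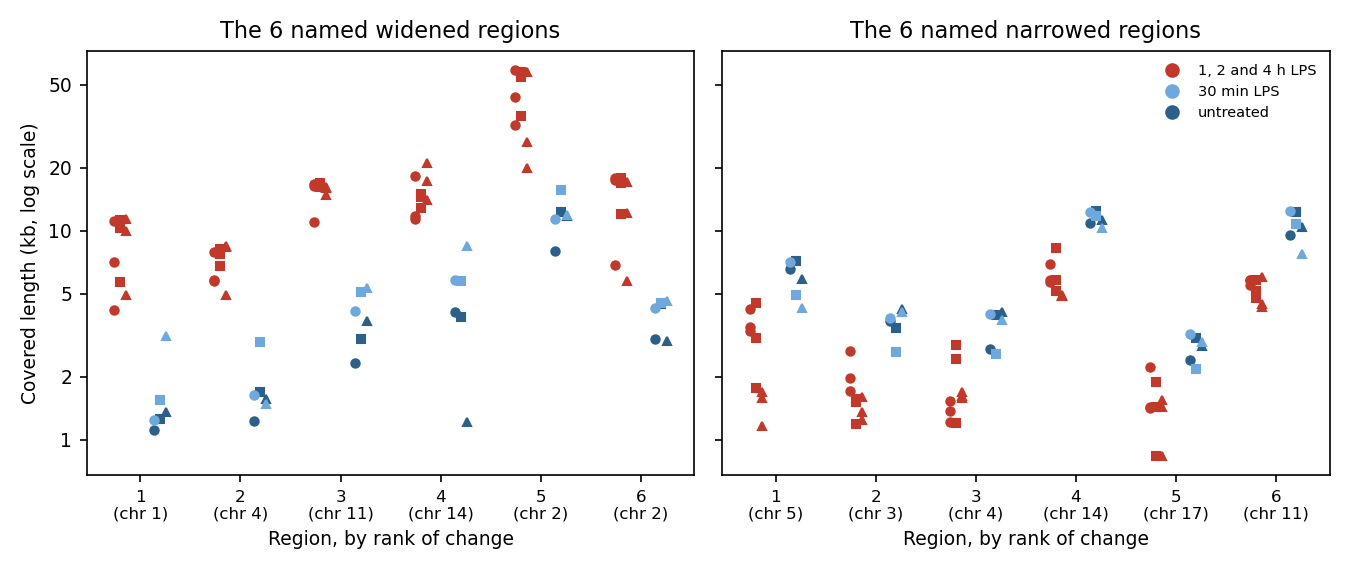
Covered length (kb, log axis) in each library for the 6 named widened and the 6 named narrowed regions, with 1 h, 2 h and 4 h (red) on the left of each pair and 30 min (light blue) and untreated (dark blue) on the right, shapes giving replicate numbers. The sets do not overlap in base pairs in any of the 6 widened regions and overlap in 4 of the 6 narrowed regions before each library is centred.

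Narrowed regions were shorter in later libraries by smaller amounts. At chr11:75368950-75381884 later libraries covered 4337 to 6035 bp with a median of 5485 bp, against 7791 to 12504 bp with a median of 10621 bp in earlier libraries (log2 difference −1.01, SE 0.0914, limma adjusted p = 1.99e-05). The lengths there were 9546, 12245 and 10449 bp in untreated cells and 12504, 10793 and 7791 bp at 30 min, so of the 3 libraries at 30 min 1 lay above the untreated range, 1 within it and 1 below it. At chr14:31940726-31953934 later libraries covered 4876 to 8316 bp, against 10301 to 12464 bp in earlier ones (log2 difference −1.03, SE 0.0971, limma adjusted p = 2.44e-05). At both regions the 2 sets were well apart in base pairs.

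At the other 4 named narrowed regions the sets overlapped in base pairs and separated only after centring. At chr5:139939757-139947414 later libraries covered 1170 to 4498 bp, against 4279 to 7149 bp in earlier ones (log2 difference −1.26, SE 0.263, limma adjusted p = 0.0160). That call did not hold without the untreated libraries (limma adjusted p = 0.308), without those at 4 h (0.0734) or with the widest peak alone (0.0792). At chr3:84685661-84690084 a single peak covered 1187 to 2655 bp in later libraries, against 2631 to 4231 bp in earlier ones (log2 difference −1.20, SE 0.152, limma adjusted p = 0.000479), where all but one earlier library had 2 peaks. With the widest peak alone its limma adjusted p was 0.0659.

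At chr4:134207934-134212070 every library had exactly 1 peak, so its length is the width of that peak. It was 1210 to 2858 bp in later libraries, against 2564 to 4074 bp in earlier ones (log2 difference −1.08, SE 0.170, limma adjusted p = 0.00255, and 0.0873 without the untreated libraries). At chr17:26030200-26033420 later libraries covered 840 to 2231 bp, against 2172 to 3221 bp (log2 difference −1.01, SE 0.169, limma adjusted p = 0.00373, 0.115 without the untreated libraries and 0.0634 with the widest peak alone). Both regions thus narrowed by about as much as the longer ones above.

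Lengths at 30 min were also read in regions called without the 30 min libraries. With later set against untreated libraries alone, 1058 regions with a peak in all 15 libraries were widened and 361 narrowed. In the widened ones the median log2 change from untreated was 0.45 at 30 min and 0.72 in later libraries, and 714 of them (67.5%) were closer at 30 min to the later mean than to the untreated mean. In 122 (11.5%) the 30 min mean lay beyond the later mean, and in 38 (3.59%) it lay at or short of the untreated mean. In the narrowed ones the median log2 change from untreated was −0.34 at 30 min and −0.64 in later libraries, and 212 (58.7%) were closer to the later mean. The untreated mean enters both differences, so they are values side by side and not independent evidence.

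Regions that appeared had a widened region nearby more often than the tested regions as a whole, although most had none. A widened region lay within 50 kb of 18 of the 73 later-only regions (24.7%) and of 128 of the 645 regions more often open with lists of equal length (19.8%), against 5.98% and 6.55% of all regions tested with all peaks and with lists of equal length. A narrowed region lay that near to 0 and 1 (0.155%) of them. The reverse direction looked alike, with a narrowed region near 5 of the 37 earlier-only regions (13.5%) and 27 of the 484 regions less often open (5.58%), against 1.99% and 2.28% of all regions tested. A widened region was near 0 and 7 (1.45%) of these. The shares are a description, since both readings come from the same peaks. Widened and narrowed regions can only be among regions open in every library. Such a region lay within 10 kb of 61.6% of the later-only and 67.6% of the earlier-only regions, against 50.6% of all tested. With lists of equal length it was 51.0% of the 645 and 50.2% of the 484, against 49.5%. The shares within 50 kb were not matched for this.

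Among the named later-only regions, 4 had a widened region within 50 kb. The distances were 1.36 kb for chr3:108857329-108860159, 2.73 kb for chr5:136505126-136507075, 7.06 kb for chr4:63043699-63045603 and 20.2 kb for chr6:98999937-99001709. Among the named earlier-only regions, a narrowed region lay 18.3 kb from chr6:49009846-49015238 and 20.9 kb from chr14:26362015-26364579. The nearest narrowed region to chr4:19782505-19784385, the earlier-only region with the highest scores, was 26300 kb away.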

How the data were processed

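The series holds 15 ATAC-seq libraries, 3 in each of 5 groups. Bowtie 1.1.2, MACS 1.4 and build mm9 are named per the submitters' processing notes. The sources used here give no settings, duplicate handling, read shift for the transposase or control library. For each library the authors deposited 1 peak list with a score per peak, used here only to rank and filter peaks inside that list. It ran from 50 to 3233.06, with 5.03% of the 1041573 peaks tied at 3100, and ties at a cut were broken by position. No read numbers come with the lists, so depth and its precision are unknown. No pair of lists shared more than 13 identical intervals, so each list counted as a library.

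Mitochondrial peaks were left out (2 per list). Peaks of all lists overlapping by 1 bp or more were merged, and positions count the first base as 1. Presence was tested with Fisher's exact test (two-sided) in regions with a peak in 3 to 12 libraries, and covered length with limma 3.58.1 in R 4.3.3 (moderated, with trend) on log2 base pairs, both adjusted by Benjamini and Hochberg at 0.05. The deposited score is not a count, so no count test was run. Library-level values were compared by exact permutation over all relabellings in Python 3.11.15 with scipy 1.17.1. The presence and length tests were checked on simulated data. The simulated libraries were independent, so the check does not cover structure shared by a replicate number or a time. The split, the tests and the naming rules were chosen with earlier results of these data known. Named were the 8 later-only and 8 earlier-only regions with the highest lowest percentile, and, in each direction, the 6 regions with the largest length difference among those past the threshold whose centred values did not overlap.

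Alternatives were lists of equal length, a score of 100 or more, 50% coverage, bins of 500 bp, other ranges of libraries tested, other scalings of length, the replicate number as a block, and each library or group left out. Planned gene lists, cell markers and motifs need build mm9 annotation and sequence, which were not used here. The gene table at hand is of another build and coordinates were not converted.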

Additional observations from a re-analysis of the deposited data

Results flagged for a closer look

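Of 34 sets of 4 to 10 libraries examined for a value far from the rest, 3 held one, and chance gives about 1 in 20. At chr1:151945989-151957538, the named region with the largest length difference, 30 min replicate 3 had 3156 bp, far above the other 5 earlier libraries, with a gap of 0.784 of the set's range. At chr4:134761439-134770022, 30 min replicate 2 had 2951 bp, likewise far above the other earlier libraries, with a gap of 0.731 of the range. At chr11:83334261-83351320, 1 h replicate 1 had 10983 bp, far below the other 8 later libraries, with a gap of 0.655 of the range. In the first 2 regions the library that stood apart was a 30 min library, and in the third a 1 h library.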

How the results depend on the processing

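With lists of equal length, regions past the adjusted threshold of Fisher's exact test numbered 645 more often and 484 less often open in later libraries, and completely separated regions 183 and 94. Testing only regions with a peak in 6 to 9 libraries gave 310 and 95, and bins of 500 bp gave 384 and 152 completely separated bins. Leaving out single libraries gave 0 to 231 and 0 to 39 regions past the threshold, and 73 to 231 and 38 to 93 completely separated ones. For the lists of equal length, single libraries left out gave 185 to 323 and 96 to 238. There the count was 183 and 94 with the test widened to regions open in 1 to 14 libraries. It was 776 and 259 without the libraries at 1 h. Without those untreated, at 30 min, at 2 h or at 4 h it was 0 and 0. Leaving out a group raises the smallest p that Fisher's exact test can give, from 0.000200 to 0.00455 without the 30 min libraries. In that case 985 and 834 regions were completely separated, with a smallest adjusted p of 0.0515. The 0 counts therefore cannot show whether the contrast was lost.

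Widened and narrowed counts were 457 and 118 without centring, 207 and 88 for the widest peak, 372 and 154 at a score of 100 or more, 80 and 25 without untreated libraries, 1090 and 361 without those at 30 min, 1000 and 258 without those at 1 h, 116 and 71 without those at 2 h, and 252 and 122 without those at 4 h. Single libraries left out gave 343 to 799 and 102 to 271.

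The difference in peaks of 10 kb or more passed adjustment without the 30 min libraries (54.8 peaks) and under the block (32.9 peaks, exact permutation adjusted p = 0.0450), and ran from 27.0 to 40.4 with single libraries left out. The difference in median width ran from −18.2 to 42.4 bp, changing sign without 4 h replicate 2 (−1.75), untreated replicate 1 (−8.78) or 30 min replicate 2 (−18.2). The excess Jaccard index ran from 0.0321 to 0.0488. Other tested values kept their direction and side of the threshold, apart from the named widened and narrowed regions given above and the named later-only and earlier-only regions, whose adjusted p was 0.0237 when tested among regions in 6 to 9 libraries and 0.0426 without 1 h replicate 3.

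On the question of pairing by replicate number, later and earlier libraries of the same number had deviations that correlated at 0.0492 to 0.251 for presence. For different numbers the range was lower, −0.173 to 0.0521, and 15 of 15 libraries correlated best with their own number. Libraries of the same number therefore shared some structure. Because only 8 of 18 same-number pairs were over 0.1 and no label says what a number marks, the numbers were not used as pairs in the main tests. With the replicate number as a block, presence gave 0 and 0 calls, also with lists of equal length (exact test within replicate numbers, smallest adjusted p 0.0856). That exact test gives no p below 0.001, so its 0 counts cannot tell replicate structure from the limit of the test. Length with the block gave 649 widened and 252 narrowed. The cause of these shifts was not tested.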

Other observations

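Widened regions and regions more often open with lists of equal length were chained into stretches where they lay within 50 kb of each other. The stretches were chosen after their values were seen and are given as positions. Of 939 stretches, 168 held at least 2 such regions and 93 held both kinds. The fullest was chr2:68661928-68891219, 229 kb with 6 widened and 5 more often open regions. Others were chr3:142152105-142295300 with 7 members, and chr10:18738025-18816211, chr12:120264090-120347171 and chr16:84619720-84723935 with 6 each. In the opposite direction 63 of 629 stretches held at least 2 regions and 26 held both kinds. The fullest of these was chr11:75343175-75391795, 48.6 kb with 5 narrowed regions and 1 less often open region, which contains the named narrowed region chr11:75368950-75381884. The stretch chr7:149557296-149609263 held 4.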
